A study of Mus musculus with 10 samples.

Results

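Alternative activation is the state macrophages enter under the type 2 cytokine IL-4, and it is recognised by a set of strongly induced marker genes. Chromatin loops were described around 10 of these genes, Retnla, Chil3, Mrc1, Mgl2, Clec10a, Ccl17, Ccl22, Ccl24, Tgm2 and Alox15. A loop was counted for a gene when 1 of its anchor bins overlapped the 100 kb on either side of the transcription start site (TSS, GENCODE M21, GRCm38). The loops near any of the 10 genes numbered 260 of the 53424 called in M0[CTR], 265 of the 58260 of M2[IL-4], 300 of the 67728 of M2p[pIL-4], 244 of the 55012 of IFNG and 326 of the 67000 of pIL-4 + IFNG. Over the 5 lists these were 575 distinct bin pairs of 153264 in all.

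The loops came from Hi-C, a method that ligates neighbouring pieces of chromatin in fixed nuclei and reads the joined ends. The cells were macrophages grown for 6 days with M-CSF (20 ng/ml) from the marrow of wild type C57BL/6 female mice aged 2 to 3 months, so M-CSF was common to every group. No cytokine other than M-CSF was given to M0[CTR]. For M2[IL-4], cells were kept in IL-4 (20 ng/ml) for 24 h, and for M2p[pIL-4] the IL-4 was then washed out and the cells rested for 24 h more. IFNG cells received interferon gamma at 20 ng/ml for 3 h without earlier IL-4, and pIL-4 + IFNG cells received it after the IL-4, wash and rest. The 2 samples of a group share 1 deposited loop list. The differences given here therefore lack a check against replicates, and they carry no p-value. The lists hold no RNA levels, so whether the 10 genes were expressed was not measured here.

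IL-4 acts through its receptor and JAK kinases on STAT6, a transcription factor that enters the nucleus and binds DNA at genes of alternative activation. The products of these genes fall into secreted proteins (Retnla, a resistin-like protein, and Chil3, a chitinase-like protein also called Ym1), endocytic lectin receptors (Mrc1, the mannose receptor CD206, and the galactose-type lectins Mgl2 and Clec10a), chemokines (Ccl17 and Ccl22, both ligands of the receptor CCR4, and Ccl24, a ligand of CCR3) and enzymes (Tgm2, which crosslinks proteins, and Alox15, which oxygenates polyunsaturated fatty acids). A chromatin loop holds a pair of distant segments together, and many loops end where the protein CTCF is bound.

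The DNA at which STAT6 can bind is shown first, since it marks which promoters carry the letters of the IL-4 pathway. The motif, the letters TTC and GAA with any 4 bases between them, reads the same on both strands and was searched in the promoters of the RefSeq table (GRCm38.p6, 250 bases before to 50 bases after a start), in which 6 of the 10 genes had an entry. It was in 6.99% of all 32619 promoters. Among the 6 genes it was found at Retnla (chr16:48842464-48842473, plus strand, first base at -145 from the RefSeq start) and Ccl17 (chr8:94810299-94810308, plus strand, first base at -154), both outside annotated genes. The promoters of Chil3, Mrc1, Mgl2 and Ccl22 did not hold these letters in this window. Capitals mark the motif in the following sequences, written 5′ to 3′ on the strand of the gene, and the last gives the whole 250 bases upstream of Ccl17 (chr8:94810203-94810452) with its STAT6 letters in capitals.
Retnla, STAT6 letters: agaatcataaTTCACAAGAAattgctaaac
Ccl17, STAT6 letters: cgagtgaccaTTCTCTGGAAagccacaaac
Ccl17, upstream: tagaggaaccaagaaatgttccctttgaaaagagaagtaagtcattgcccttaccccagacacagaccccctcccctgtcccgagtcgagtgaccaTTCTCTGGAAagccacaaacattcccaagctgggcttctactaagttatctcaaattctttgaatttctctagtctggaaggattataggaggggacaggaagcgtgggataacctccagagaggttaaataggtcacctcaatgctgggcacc

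The letters of the CTCF consensus (CCAC, any base, AGG, any base, then GGCAG) were searched in the anchor bins on which the following results turn. The TSS bins of all 10 genes were searched too, of which those of Retnla and Chil3 anchored no loop. Both strands were searched, with at most 1 mismatch among the 12 fixed letters. Such a match was in 6.14% of all 255608 bins of 10 kb and in 10.6% of the 70525 bins that anchored a loop in any list. Of the 52 bins searched, 7 held a match (13.5%), and the bins were chosen after the loops had been seen. A match without mismatch lay in the TSS bin of Ccl17 (chr8:94812972-94812985, minus strand, intergenic) and in the Rhbdd2 bin upstream of Ccl24 (chr5:135630801-135630814, minus strand, intergenic). Matches with 1 mismatch lay in the bin 42.0 kb upstream of Ccl24 (chr5:135616172-135616185, plus strand, in an exon of the unclassified transcript Gm43123), in the Asgr1 bin upstream of Mgl2 and Clec10a (chr11:70055761-70055774, plus strand, intron of Asgr1) and in the Tgm2 gene (chr2:158139581-158139594, minus strand, intron). Another 2 lay at the ends of a pair near Ccl24 (chr5:135551088-135551101, plus strand, and chr5:135806754-135806767, minus strand, both intergenic). The first 5 are given below on the strand of the match, with the consensus in capitals. A match describes letters and not binding.
Ccl17 TSS bin: aaaactggCCACAAGGTGGCAGcaataggt
Rhbdd2 bin: aacacctaCCACTAGGGGGCAGcaggggtt
Bin upstream of Ccl24: ggagctggCCGCTAGGTGGCAGtgaagacc
Asgr1 bin: atattatgCCACAGGGTGGCAGcagaggtc
Tgm2 gene: gatgtcatCCACCAGGAAGCAGtgtctttc

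Values given together for the 5 lists follow the order M0[CTR], M2[IL-4], M2p[pIL-4], IFNG and pIL-4 + IFNG. The loops of the whole lists had a median of 32 contacts in each list and a median span of 160 to 180 kb, and the fewest contacts of a called loop were 5. Near the 10 genes the loops were shorter, with a median span of 90 to 100 kb, and had a median of 44 to 48 contacts. They made up 0.443% to 0.487% of each list. The lists differed in length, so comparisons of loop numbers were scaled by list length. A bin pair missing from a list was not called there, which is not the same as 0 contacts. As a check of the cell type label, 8 macrophage loci (Csf1r, Spi1, Adgre1 and others) had a median of 35.5, 39.5, 45, 40 and 42 loops within 100 kb, 8 T and B cell loci 22.5, 19.5, 22.5, 22.5 and 30.5, and 6 granulocyte loci 11, 16, 18.5, 16.5 and 19. Lineage genes of other cells thus also lay among loops, and loop numbers were not read as a measure of cell identity.

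The 10 genes differed among themselves far more than any of them differed between treatments. Loops per gene over the 5 lists ran from 0 at Retnla to 473 at Clec10a. Clec10a ranked 207 of 21728 protein-coding genes, Mgl2 272, Ccl24 545 and Alox15 1035. Tgm2 ranked 4944, Mrc1 6748, Ccl22 8693 and Ccl17 9364. Chil3 and Retnla stood at the other end, with 2 and 0 loops, ranks 16529 and 18011. Of all genes, 17.1% had no loop in any list, and the median gene had 6, 7, 8, 7 and 8 loops. The 10 genes occupied 7 loci. Mgl2 lies 25.9 kb from Clec10a, whose window also overlaps that of Alox15, and Ccl17 lies 64.9 kb from Ccl22, so these 5 genes share loops and are not independent of each other.

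**Figure D1:**
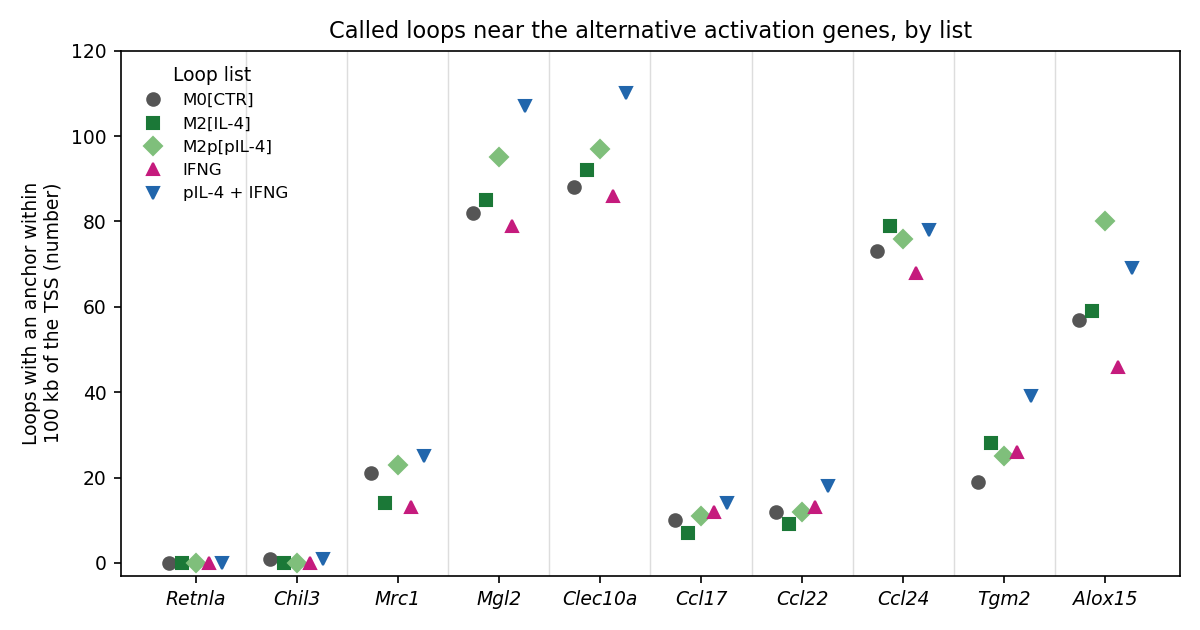
Number of loops with an anchor within 100 kb of the TSS (vertical axis) for each of the 10 genes (horizontal axis), with 1 symbol for each of the 5 loop lists, not scaled by list length. Retnla and Chil3 have 0 or 1 loop in every list, Mrc1, Ccl17, Ccl22 and Tgm2 between 7 and 39, and the other 4 genes between 46 and 110.

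Among the secreted proteins, Retnla (ENSMUSG00000061100.4, chr16:48842551-48844461, plus strand) had no loop in any list, also within 200 kb. The anchor bin nearest to its start lay 667, 627, 647, 667 and 557 kb away in the 5 lists, always downstream. In each list between 90.9% and 92.4% of genes had a nearer anchor, and the median gene had one within 6.82 to 11.8 kb. Chil3 (ENSMUSG00000040809.10, chr3:106147554-106167564, minus strand) had 1, 0, 0, 0 and 1 loops. Both joined a bin at Chia1, a chitinase gene beside it, to the same bin 137 kb upstream of Chil3, with 32 contacts (M0[CTR]) and 34 contacts (pIL-4 + IFNG). The Chia1 ends were neighbouring bins, 32.6 and 42.6 kb downstream of the Chil3 start. Within 200 kb Chil3 had 7, 6, 10, 8 and 8 loops. Both genes were thus without a called promoter loop in M2[IL-4], and with fewer than 10 loops over the 5 lists they entered no comparison of loop numbers.

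Mrc1 (ENSMUSG00000026712.3, chr2:14229392-14332057, plus strand) was the receptor gene with the widest range of scaled loop numbers, 0.70 on the log2 scale. Of the genes with at least 10 loops over the 5 lists, 52.6% had a narrower range than Mrc1. It had 21 loops in M0[CTR], then 14 with IL-4 in M2[IL-4], 23 after the wash in M2p[pIL-4], 13 with IFNG alone and 25 with IFNG after IL-4. The lists M2[IL-4] and IFNG, the cells taken directly after a single cytokine, were low, and the other 3 were high. The loops held 675, 520, 979, 435 and 760 contacts. They were weaker than the typical loop: their contacts were divided by the median of all loops of that list with an equal span, and the median of this was 0.825, 0.809, 0.846, 0.741 and 0.738.

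The Mrc1 loops had a direction. The bin that anchored most of them, chr2:14160001-14170000, lay 64.4 kb upstream of the start and overlapped no protein-coding gene. It anchored 6, 4, 7, 5 and 6 loops with 253, 193, 379, 225 and 242 contacts, mostly to bins inside the Mrc1 gene. One of these partners, the bin 5.61 kb inside the gene, was called only in the lists of cells that had received IL-4, with 54, 56 and 53 contacts. At a bin 65.6 kb inside the gene (chr2:14290001-14300000) the calls were 4, 1, 1, 3 and 4. The bin 85.6 kb inside the gene did not share these low numbers in M2p[pIL-4], where it was joined to 3 upstream bins with 27, 22 and 27 contacts.

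The TSS bin of Mrc1 had 0, 1, 1, 0 and 1 loops, and the partner differed each time. The start lies 0.609 kb from the next bin, which in M0[CTR] was joined to the start of Tmem236, a transmembrane protein gene, with 46 contacts. With the neighbouring bins on both sides the loops were 1, 3, 5, 0 and 4. In M2[IL-4] the partner of the TSS bin lay 24.4 kb upstream with 70 contacts (exact Poisson 95% interval 54.6 to 88.4, covering counting error only). In M2p[pIL-4] it was the neighbouring bin, 14.4 kb upstream, with 116 contacts (95.9 to 139). In pIL-4 + IFNG it lay 54.4 kb upstream at the same Tmem236 bin, with 38 contacts (26.9 to 52.2). None of the 3 exceeded the median of loops of its span, the contacts being 0.795, 0.80 and 0.679 of it.

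**Figure D2:**
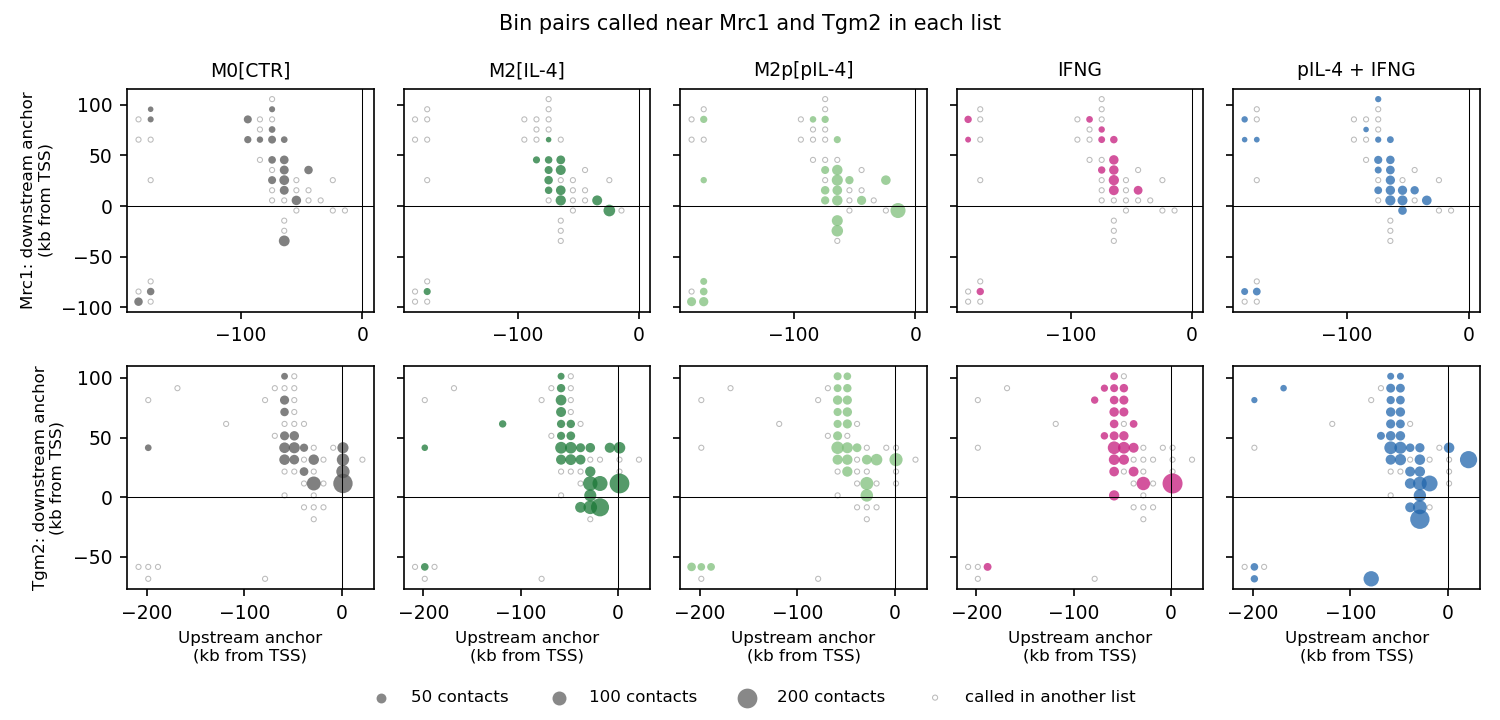
Bin pairs called near Mrc1 (top) and Tgm2 (bottom) in each of the 5 lists, placed by the distance of the upstream anchor (horizontal axis) and the downstream anchor (vertical axis) from the TSS in kb, with the area of a filled circle proportional to its contacts. Open circles are pairs called in another list only; 47 of 52 pairs of Mrc1 and 53 of 58 of Tgm2 lie inside the frames, and the columns of circles are the bins 64.4 kb upstream of Mrc1 and 58.6 kb upstream of Tgm2.

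The lectin genes Mgl2 (ENSMUSG00000040950.13, chr11:70130329-70137550, plus strand) and Clec10a (ENSMUSG00000000318.16, chr11:70156197-70170834, plus strand) had the most loops. Among the 8 genes with at least 10 loops over the 5 lists, they had the narrowest ranges of scaled loop number. Mgl2 had 82, 85, 95, 79 and 107 loops, and Clec10a 88, 92, 97, 86 and 110. Their scaled loop numbers spanned 0.19 and 0.20 on the log2 scale over the 5 lists. Of the 14591 genes with at least 10 loops over the 5 lists, all but 2.23% and 3.06% had a wider range. Many of those genes had far fewer loops, and the part of loop number in this range was not tested. The bin with the most loops of the pair was at the start of Asgr1 (chr11:70050001-70060000), which encodes a related lectin, a subunit of the asialoglycoprotein receptor. It anchored 17, 15, 14, 14 and 17 loops, and a bin without a gene 74.7 kb downstream of Mgl2 (chr11:70200001-70210000) anchored 12, 15, 15, 14 and 16. The next bin, at the start of the transporter gene Slc16a11, anchored 13, 14, 12, 11 and 13. The Asgr1 bin held 1131, 1153, 793, 1060 and 1231 contacts, fewest in M2p[pIL-4].

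The loops of the starts of these neighbours differed in contacts. The TSS bin of Mgl2 had 5, 5, 8, 3 and 7 loops, and its loop to the Asgr1 bin was called with 61, 57 and 81 contacts in M2p[pIL-4], IFNG and pIL-4 + IFNG and not called in the other lists. In pIL-4 + IFNG it reached 1.80 times the median of its span, with an interval of 64.3 to 101 contacts beside the median of 45. This pair and list were chosen because that ratio was the highest of the Mgl2 TSS bin, and the interval takes no account of that choice. The TSS bin of Clec10a had 2, 4, 4, 1 and 4 loops, and its loop to the same Asgr1 bin was called with 26, 26 and 23 contacts in M0[CTR], IFNG and pIL-4 + IFNG, at most 0.650 times the median. The bins of the Mgl2 and Clec10a starts were joined in M2p[pIL-4] only, with 52 contacts.

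**Figure D3:**
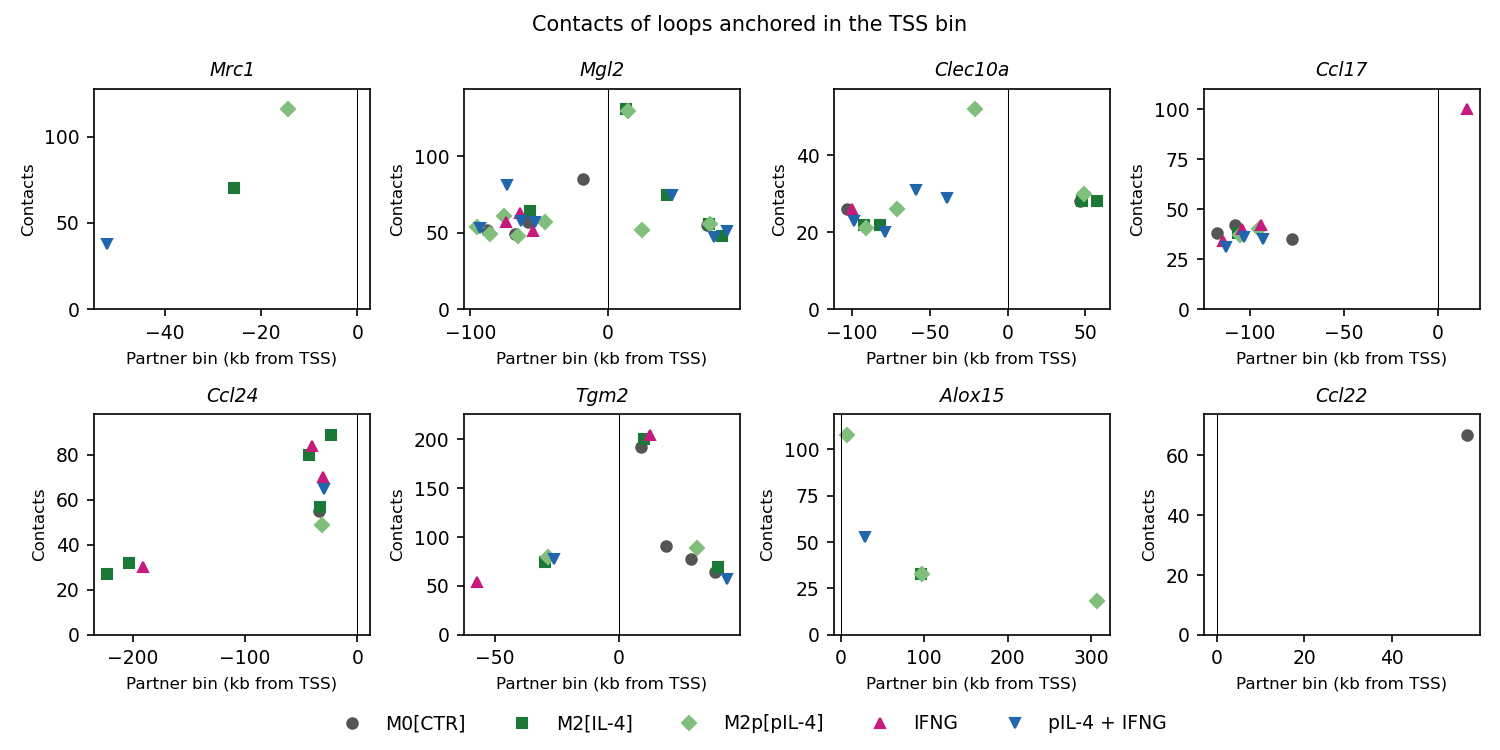
Contacts (vertical axis, from 0) of the loops anchored in the TSS bin of 8 genes against the distance of the partner bin from the TSS in kb (horizontal axis, negative upstream), 1 symbol per loop and list, with symbols of different lists shifted by up to 2.4 kb so that they do not hide each other. Mrc1 has symbols for 3 lists only, Ccl22 for 1, and Ccl17 and Ccl24 each have 1 partner called in all 5 lists.

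The chemokine genes Ccl17 (ENSMUSG00000031780.2, chr8:94810453-94812036, plus strand) and Ccl22 (ENSMUSG00000031779.3, chr8:94745590-94751699, plus strand) lie on the same strand, with Cx3cl1 between them, and had few loops. Ccl17 had 10, 7, 11, 12 and 14, and Ccl22 12, 9, 12, 13 and 18. M2[IL-4] was the lowest list for both and pIL-4 + IFNG the highest. Scaled by list length, IFNG was highest for Ccl17 and pIL-4 + IFNG next, and M2[IL-4] stayed lowest for both. Of the 5 bin pairs of the Ccl17 start, 4 ran upstream across Ccl22, and the other joined the adjacent downstream bin in IFNG alone, with 100 contacts. Its TSS bin, which also overlaps Ciapin1, was joined to a bin 105 kb upstream without a gene (chr8:94700001-94710000) in all 5 lists, with 42, 38, 37, 40 and 36 contacts, the lowest within the interval of the highest (30.3 to 56.8). The neighbouring Pllp bin, at the gene of a myelin membrane protein, was called with 38, 34 and 31 contacts in M0[CTR], IFNG and pIL-4 + IFNG and in neither other list.

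The Ccl22 start, by contrast with that of Ccl17, anchored 1 loop in 1 list. This was in M0[CTR], 59.4 kb downstream to the bin just before Ccl17, with 67 contacts. Ccl17 had the widest range of scaled loop numbers over the 5 lists among the 8 genes with at least 10 loops, 0.78 on the log2 scale, although 59.1% of the genes with at least 10 loops had a narrower one. The 3 genes on other chromosomes whose mean-centred log2 loop numbers lay closest to those of Ccl17 were Hibadh at a distance of 0.10 (41, 29, 46, 46 and 53 loops), Zfp772 at 0.11 and Bace2 at 0.12 (29, 19, 32, 32 and 39 loops), taken over 5 lists.

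The third chemokine gene, Ccl24 (ENSMUSG00000004814.10, chr5:135569937-135573049, minus strand), had 73, 79, 76, 68 and 78 loops, 62 of the 73 in M0[CTR] leaving the window. Its TSS bin had 1, 5, 1, 3 and 1 loops. One of them, to a bin 32.0 kb upstream without a gene (chr5:135600001-135610000), was called in all 5 lists with 55, 57, 49, 70 and 65 contacts. The bin 42.0 kb upstream was called only in M2[IL-4] and IFNG, with 80 and 84 contacts (63.4 to 99.6 and 67.0 to 104). That bin anchored the most loops of the locus, 14, 11, 11, 14 and 11, and together with the Rhbdd2 bin (9, 10, 12, 12 and 6) holds the CTCF letters shown above. Loops to the start of Ccl26, the neighbouring gene of the same chemokine family, numbered 1, 3, 1, 3 and 4. In M2[IL-4] alone the Ccl24 start was also joined to bins of Mdh2, a mitochondrial enzyme gene, 202 and 222 kb upstream, with 32 and 27 contacts. The bin 202 kb upstream also holds the start of Styxl1. In IFNG the Ccl24 start was joined to the Styxl1 bin beside it, 192 kb upstream, with 30 contacts.

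Of the enzyme genes, Tgm2 (ENSMUSG00000037820.15, chr2:158116402-158146436, minus strand) had 19, 28, 25, 26 and 39 loops with 1112, 1783, 1234, 1323 and 2200 contacts. M0[CTR] was lowest in both and pIL-4 + IFNG highest. A bin 58.6 kb upstream (chr2:158200001-158210000), in the uncharacterised gene D630003M21Rik, anchored 6, 9, 11, 11 and 10 of the loops with 261, 393, 451, 503 and 414 contacts. Its strongest pair, with a bin of Rprd1b 41.4 kb downstream of the start, so that the loop spans the whole Tgm2 gene, had 58, 71, 80, 83 and 83 contacts. The M0[CTR] interval of 44.0 to 74.98 overlapped those of the other lists, of which the lowest started at 55.5 and the highest ended at 103, and the pair was chosen after its values had been seen.

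The same upstream bin of Tgm2 also reached outward. A pair with a bin 199 kb upstream of the start was called with 30 contacts in each list of IL-4-exposed cells and in no other. The TSS bin of Tgm2 had 4, 3, 2, 2 and 2 loops. It was joined to the adjacent bin inside the gene with 192, 200 and 205 contacts in M0[CTR], M2[IL-4] and IFNG, up to 1.45 times the median of that span. Its loop to a bin 28.6 kb upstream was again called only in the lists with IL-4 exposure, with 75, 80 and 78 contacts.

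Alox15 (ENSMUSG00000018924.6, chr11:70344152-70352031, minus strand) lies in a cluster of lipoxygenase genes and had 57, 59, 80, 46 and 69 loops, 42 of the 57 in M0[CTR] leaving the window. M2p[pIL-4] was highest and IFNG lowest. Its main bins were at Pelp1, which encodes a coregulator of nuclear receptors (10, 8, 11, 8 and 8 loops), at the gene-free bin beside it (8, 6, 11, 6 and 14) and at Alox12e, an epidermal lipoxygenase gene (5, 7, 9, 5 and 8). Loops to the start of Alox12, the platelet-type lipoxygenase, numbered 4, 9, 5, 4 and 7. The Alox15 TSS bin had 0, 1, 3, 0 and 1 loops. A loop with the Alox12 start, 97.0 kb away, was called with 33 contacts (22.7 to 46.3) during IL-4 and with 33 again after the wash, and with the Alox12e start in pIL-4 + IFNG with 53.

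Summed over the 10 genes, the TSS bins had 16, 20, 21, 13 and 19 loops. The loop joining the Mgl2 and Clec10a starts in M2p[pIL-4] is counted for both genes. Of the 10 genes 6, 7, 7, 5 and 7 had at least 1 such loop, against 34.8%, 36.0%, 39.5%, 35.0% and 39.7% of all genes. Clec10a, Mgl2, Ccl24 and Alox15 rank high in loop number, and neighbours among the 10 share loops. The part of loop density in this difference was not tested. Only the Ccl17 and Ccl24 starts had a partner in the same bins in all 5 lists.

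The first comparison asked how loops near the genes differed after 24 h of IL-4. Loop numbers were compared as log2((n + 1) / (reference + 1)) less the log2 ratio of list lengths, and a gene was counted as past 1.5-fold where this exceeded that fold in either direction. The 8 genes with at least 10 loops over the 5 lists entered it. M2[IL-4] against M0[CTR] put 1 of these 8 genes past 1.5-fold, Mrc1, with 14 loops against 21 (-0.68, or 0.625 times). Over the 14591 genes compared, 10.3% were past 1.5-fold lower and 11.6% past it higher, so 1 in 8 is near the background. Of these genes, 8.73% had a lower value than Mrc1. The Mrc1 difference depended on distance: within 50 kb it had 11 loops against 9 (0.14), and within 200 kb 15 against 26 (-0.88). Ccl17 was just inside the threshold at -0.58 and Ccl22 stood at -0.50. Tgm2 was the highest at 0.41, above 82.5% of genes. Mgl2, Clec10a, Ccl24 and Alox15 lay between -0.08 and -0.01, and the median over the 8 genes was -0.07 beside -0.03 over all genes.

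After the wash, M2p[pIL-4] against M0[CTR] put none of the 8 genes past 1.5-fold, where 10.7% of all genes were higher and 7.66% lower. Mrc1 was at -0.22 with 23 loops against 21. The values ran from -0.34 at Ccl22 to 0.14 at Alox15, with a median of -0.21 beside -0.02 over all genes. M2p[pIL-4] against M2[IL-4] also put none of them past the threshold, with 10.9% of genes higher and 8.24% lower. Mrc1 was highest at 0.46 and Tgm2 lowest at -0.37. These comparisons share lists with the first and are not independent of it.

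The next comparisons asked how the loops differed after IFNG and whether earlier IL-4 made a difference. IFNG against M0[CTR] again put only Mrc1 past 1.5-fold, with 13 loops against 21 (-0.69, or 0.618 times), where 13.0% of genes were higher and 10.5% lower. Within 50 kb it had 6 loops against 9 (-0.56). Alox15 was at -0.35 and Tgm2 at 0.39. With pIL-4 + IFNG set against M2p[pIL-4], Tgm2 was the only one past the threshold, with 39 loops against 25 (0.64, or 1.56 times), beside 10.9% of genes higher and 8.15% lower. It was at 0.60 within 50 kb and at 0.54, under the threshold, within 200 kb. Ccl22 followed at 0.56, with 18 loops against 12. In pIL-4 + IFNG against IFNG, Mrc1 was past it, with 25 loops against 13 (0.61, or 1.52 times), where 9.79% of genes were higher and 7.74% lower. The value within 50 kb was 0.72, with 13 loops against 6. The medians of the 8 genes in these 3 comparisons were -0.09, 0.19 and 0.15, beside -0.04, 0.02 and -0.02 over all genes.

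**Figure D4:**
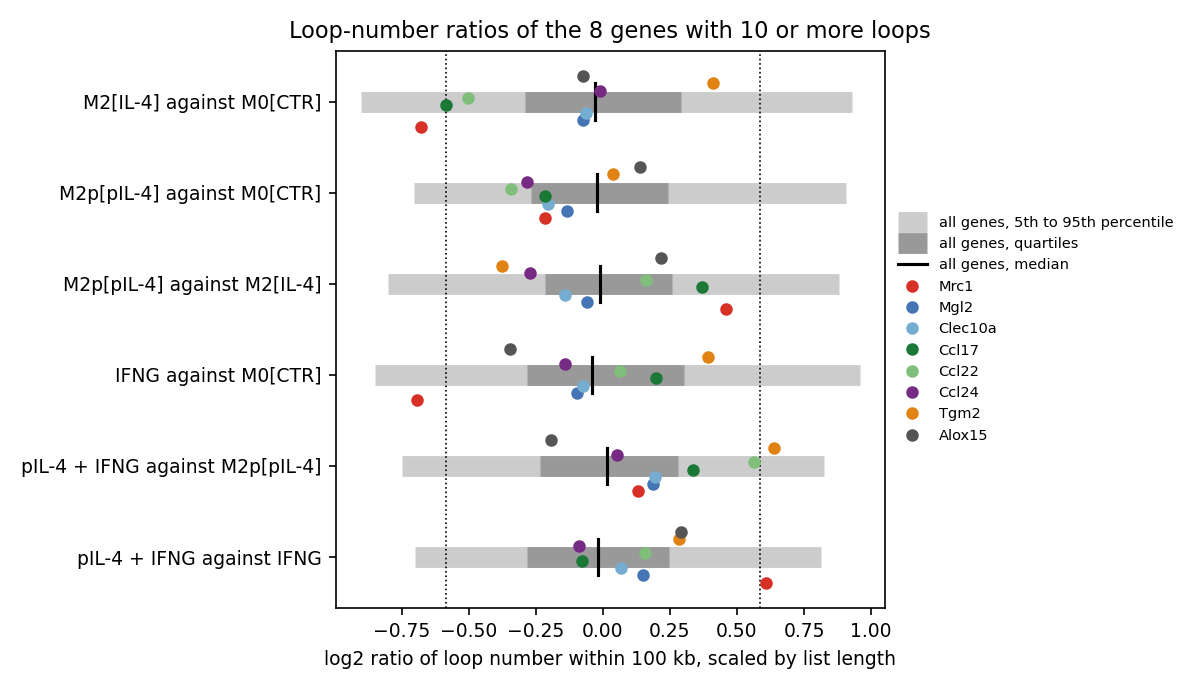
Scaled log2 ratio of loop numbers within 100 kb (horizontal axis) for the 8 genes with at least 10 loops over the 5 lists, in each of 6 comparisons of lists (vertical axis), over bars for the 5th to 95th percentile and the quartiles of all 14591 genes compared. Dotted lines mark 1.5-fold, which Mrc1 passes in 3 comparisons and Tgm2 in 1.

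Genes of the IL-4 pathway and its transcription factors were set beside the markers. Of 16 such genes, M2[IL-4] against M0[CTR] put 3 higher, namely Egr2 with 81 loops against 48 (0.62), Klf4 with 116 against 66 (0.68) and Myc with 52 against 29 (0.70), and 2 lower, the receptor chains Il13ra1 and Il2rg with 0 against 3 and 3 against 5 loops. Their median was 0.11, and over all genes compared 11.6% were higher and 10.3% lower. Of 16 IFNG-induced genes, 6 were higher and 1 lower in IFNG against M0[CTR], where 13.0% of all genes were higher and 10.5% lower. The median of the 16 was 0.18. Among the 6 were the guanylate-binding protein genes Gbp5 with 47 loops against 14 (1.64) and Gbp2 with 37 against 11 (1.62). The chemokine gene Cxcl9 had 21 against 6 (1.61). Whether genes of these lists share loops was not examined, so the counts may not be of independent loci. Of 15 housekeeping genes compared, 2 were higher and 1 lower in M2[IL-4] against M0[CTR]. In IFNG against M0[CTR], 3 of the 15 were higher and 2 lower, with a median of -0.04. Their values there ran from -2.04 at Pgk1 (0 loops against 3) to 1.37 at B2m (7 against 2). None of the 8 alternative activation markers compared reached the size of difference that Gbp2 or Gbp5 had after IFNG.

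Loop numbers depend on what passed the caller, so contacts were also compared at the bin pairs called in all 5 lists, 99 near the 10 genes. Pairs lost or gained between lists are left out by this choice, so these contacts do not bear on them. The 99 pairs summed to 5758, 5944, 5985, 6140 and 6016 contacts, which were not scaled. M2[IL-4] was 1.03 times M0[CTR], a log2 ratio of 0.05 (95% interval -0.01 to 0.10, counting error only). Over the whole series, 14063 such pairs summed to 737975, 736537, 764380, 759377 and 754535 contacts. There M2[IL-4] was 0.998 times M0[CTR]. M2p[pIL-4] was 1.036 times M0[CTR] over the series and 1.039 times near the 10 genes. For Mrc1 the 3 such pairs had 111, 125, 134, 124 and 115 contacts, with an M2[IL-4] to M0[CTR] ratio of 0.17 (-0.21 to 0.55). For Tgm2 the 10 pairs had 507, 570, 531, 567 and 562 (0.17, -0.01 to 0.34). The 32 pairs of Mgl2 had 1754, 1723, 1844, 1788 and 1849 (-0.03, -0.12 to 0.07), the 29 of Ccl24 1662, 1740, 1720, 1796 and 1770, and the 23 of Alox15 1639, 1700, 1681, 1770 and 1627.

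None of the 8 genes was past 1.5-fold in these summed contacts in any of the 6 comparisons. Among 11281 genes with such pairs few were. In M2[IL-4] against M0[CTR] 0.337% were higher and 0.328% lower, in M2p[pIL-4] against M0[CTR] 0.541% and 0.195%, and in M2p[pIL-4] against M2[IL-4] 0.496% and 0.160%. In IFNG against M0[CTR] the shares were 0.479% and 0.213%, for pIL-4 + IFNG relative to M2p[pIL-4] 0.266% and 0.284%, and in pIL-4 + IFNG against IFNG 0.275% and 0.151%. Single pairs reached further. A pair at Mgl2 and Clec10a, from a bin 55.3 kb upstream of Mgl2 to the Slc16a11 bin, had 41, 55, 50, 55 and 63 contacts, and its pIL-4 + IFNG to M0[CTR] ratio was 0.62 (0.03 to 1.22). A pair beside Alox15, spanning 100 kb, had 35, 37, 42, 57 and 46 contacts, and its IFNG to M0[CTR] ratio was 0.70 (0.07 to 1.35). Other pairs were lower. A pair from a bin 44.7 kb to one 74.7 kb downstream of Mgl2 had 112, 95, 80, 78 and 110 contacts, with a ratio to M0[CTR] of -0.49 (-0.92 to -0.06) in M2p[pIL-4] and -0.52 (-0.96 to -0.09) in IFNG. A pair beside Alox15, spanning 90 kb, had 114, 109, 84, 91 and 99 contacts, and its M2p[pIL-4] to M0[CTR] ratio was -0.44 (-0.86 to -0.02). Each was the highest or lowest of its gene, so its interval takes no account of that choice.

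Bin pairs were also sorted by how many lists called them. Of the 575 bin pairs 43.3% were in 1 list (exact binomial 95% interval 39.2 to 47.5), against 55.5% of all bin pairs, and 17.2% were in all 5 (14.2 to 20.6), against 9.18%. The genes differed in this. Pairs in all 5 lists were 17.2% to 21.2% of those of Mgl2, Clec10a, Ccl24, Tgm2 and Alox15, but 3 of 52 at Mrc1 (5.77%), 3 of 39 at Ccl22 (7.69%), 3 of 29 at Ccl17 (10.3%) and 0 of 2 at Chil3. Pairs in 1 list were 57.7% at Mrc1, 71.8% at Ccl22 and 62.1% at Ccl17, above the share over all pairs, and 31.2% to 45.5% at the 5 genes named first. The part of loop density in these shares was not tested. Pairs in M2[IL-4] alone were 6.61% (4.72 to 8.96), against 10.6%. Neighbouring bin pairs are not independent, and these intervals cover counting error only. Pairs in the 3 IL-4-exposed lists and no other numbered 12, or 2.09% (1.08 to 3.62), against 1.45%, an interval that includes the share over all pairs. By gene they numbered 5 at Alox15, 3 at Tgm2, 3 at Clec10a, 2 at Mrc1, 2 at Mgl2 and 1 at Ccl24, counting shared ones for each gene. Among them were the pair of the Asgr1 and Alox12e bins, with 29, 33 and 29 contacts, which runs from the lectin genes to the lipoxygenase genes, and a pair of the Alox12 bin 80 kb long, with 48, 59 and 43. Pairs in M0[CTR] and IFNG and no other list numbered 5, or 0.870%, against 1.21%.

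**Figure D5:**
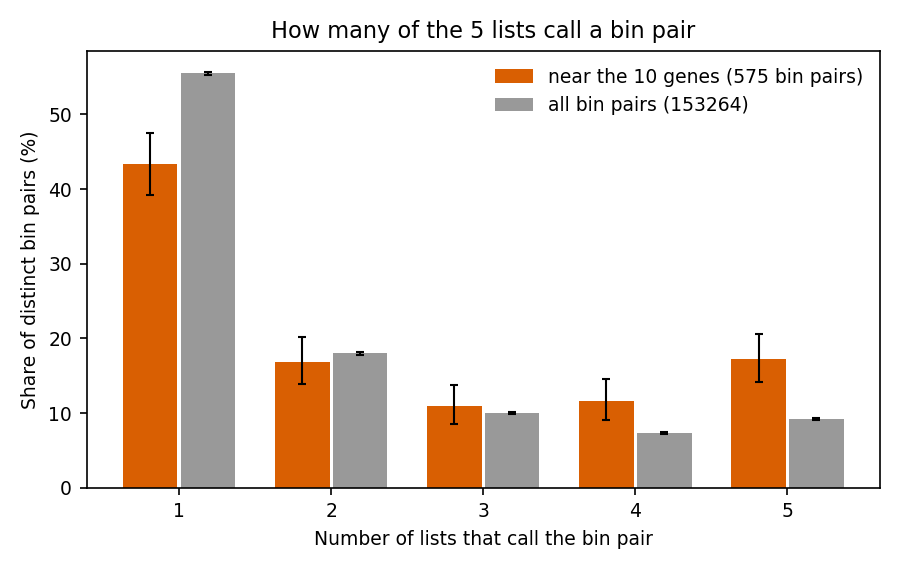
Share of distinct bin pairs in percent (vertical axis) by how many of the 5 lists call them (horizontal axis), for the 575 pairs near the 10 genes and all 153264 pairs, with exact binomial 95% intervals for counting error as bars. The share in 1 list is 43.3% near the genes and 55.5% over all pairs, and the share in all 5 is 17.2% and 9.18%.

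Loops with no M0[CTR] loop within 25 kb at both anchors were counted as gained with IL-4. They were 9 of the 265 M2[IL-4] loops near the genes (3.40%, 1.56 to 6.35), against 13.6% over the whole list. The share was lower at genes with more loops: genes with 1 to 10 loops in M2[IL-4] had a median of 30% gained, those with 11 to 20 12.5%, those with 21 to 50 7.69% and those with 51 to 200 3.92%. Mgl2, Clec10a, Ccl24 and Alox15, in the last group, had 0 to 3.797%, Mrc1 and Tgm2 7.14% each, and Ccl17 and Ccl22 0 and 22.2%. In the same bins, 106 of the 265 loops (40%, 34.1 to 46.2) had no M0[CTR] loop, against 55.5%. The part of loop density in this difference was not tested, and the grouping by density was made after the share had been seen.

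Of the 9 gained loops, 4 were matched in M2p[pIL-4] (44.4%, 13.7 to 78.8), against 46.7% over all gained loops, and count as Memory loops, with a match within 25 kb after the wash. Of these, 1 was called in the same bins in M2p[pIL-4], the outward pair of the Tgm2 upstream bin, and the other 3 were matched to another bin pair nearby. They were the loop of the Mrc1 start, whose partner bin differed, a pair near Ccl24 with a bin of Srrm3 (27 contacts in M2[IL-4] and 26 in pIL-4 + IFNG) and a pair near Ccl22 between bins of Nlrc5, a regulator of MHC class I genes, and Pllp (29 contacts). The remaining 5 were Transient, with no such match after the wash. They included a pair from the Slc16a11 bin to Cldn7 near Mgl2 and Clec10a (22 contacts), a pair around Tgm2 from Rprd1b to Bpi, a gene of an antibacterial protein (28 contacts), and a pair of adjacent Hip1 bins near Ccl24 (124 contacts).

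Primed loops, found after the wash and in neither M0[CTR] nor M2[IL-4], numbered 9 of 300 (3%), against 8.35% of the M2p[pIL-4] list. Ccl24 had 4 of them, Alox15 2, and Mrc1, Ccl17 and Ccl22 1 each. Loops of M0[CTR] absent with IL-4 and matched again within 25 kb after the wash numbered 10 of 260 (3.85%, 1.86 to 6.96), against 4.92%. Mrc1 had 4 of these and Ccl24 4. The pair of the Hacd1 bin with the 3′ part of Mrc1 had 19 contacts at first and 27 in the same bins after the wash. The other Mrc1 pairs were not called in the same bins after the wash and were matched to another bin pair nearby. Loops of M0[CTR] absent from both numbered 6 (2.31%), against 5.86%, and 1 of them was the Chia1 loop near Chil3. The part of loop density in these shares was not tested.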

How the data were processed

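Hi-C was measured in 10 samples, 2 in each of 5 groups assigned from the sample titles. The authors deposited 1 loop list per group, with both replicates apparently merged. Each line gives a pair of 10 kb bins and, as deposited, whole-number counts of contacts, with no apparent normalization. The submitters' processing notes name FastQC, Bowtie2, HiC-Pro, Juicer and HOMER and the build mm10. The caller and threshold behind the lists are not given in the sources used here, since the methods describe loops in larger bins. The loops of a list held 2174945 to 2787117 contacts. The depth of the libraries cannot be read from these, as uncalled contacts are left out.

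Loops were assigned to 21728 protein-coding genes of GENCODE M21 (autosomes and X) by overlap of an anchor bin with 100 kb either side of the TSS, the 5′ end of the gene. Distances are from the TSS to the centre of a bin. Loop numbers were compared with a pseudocount of 1, scaled by list length, in the 14591 genes with at least 10 loops over the 5 lists. Loops of different lists were matched within 25 kb at both anchors. Intervals are exact Poisson, for ratios of contacts exact binomial, and for shares Clopper-Pearson, all at 95%. With 1 list per group no test was made. The counting of loops per gene was tested on simulated data.

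The 10 genes, the gene lists and the comparisons were chosen with earlier results of these data known. All 10 genes are named. Loops named are, per gene, the strongest of the TSS bin, the strongest M2[IL-4] loop without an M0[CTR] match, and the pairs in all 5 lists with the highest and lowest ratio to M0[CTR]. Other loops, the bins with most anchors and the motif bins were chosen after their values were seen. Alternatives were windows of 50 and 200 kb, other scalings, pseudocounts of 0.5 and 5, summed contacts, merged bin pairs, a 2-fold threshold, no filter and other matching. Scripts ran in Python 3.11.15 with scipy 1.17.1, pandas 2.3.3, numpy 2.4.6 and, for the figures, matplotlib 3.10.9.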

Additional observations from a re-analysis of the deposited data

How the results depend on the processing

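No paired analysis was possible because the lists, 1 per group, hold no values of single replicates, and leaving out a replicate, edgeR and DESeq2 were likewise not run. Of 140 alternative values for 28 results, 77 stayed within their tolerance, 55 moved and 8 changed sign. The calls at Mrc1 and Tgm2 were the least settled. Within 50 kb, and with a pseudocount of 5 or a 2-fold threshold, 0 of the 8 genes were past the threshold in both M2[IL-4] and IFNG against M0[CTR], and the last 2 settings also gave 0 in both comparisons of pIL-4 + IFNG. Without scaling the number was 0 in M2[IL-4] against M0[CTR] and 1 (Mrc1, higher) in M2p[pIL-4] against M2[IL-4], as it was within 200 kb. A pseudocount of 0.5 gave 2 (Mrc1 and Ccl17, both lower) in M2[IL-4] against M0[CTR]. Within 200 kb IFNG against M0[CTR] gave 2, with Ccl22 higher, and for pIL-4 + IFNG against M2p[pIL-4] Ccl22 took the place of Tgm2. Without the filter Chil3 was added, for 2 genes in M2[IL-4] and IFNG against M0[CTR] and in both comparisons of pIL-4 + IFNG, and 1 in M2p[pIL-4] against M0[CTR].

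The median log2 ratio of the 8 genes changed sign in M2[IL-4] against M0[CTR] without scaling (0.050) and scaled by contacts at pairs in all 5 lists (0.053), and in M2p[pIL-4] against M0[CTR] under the same settings (0.13 and 0.082). In M2p[pIL-4] against M2[IL-4] these gave 0.27 and 0.22, and summed contacts (-0.081), merged pairs (-0.30) and 1 gene per group of overlapping windows (-0.059) turned its sign. In pIL-4 + IFNG against IFNG the scalings gave 0.44 and 0.45. Summed contacts turned IFNG against M0[CTR] (0.024). Merging touching bin pairs gave -0.41 for IFNG, -0.42 for M2[IL-4] and -0.63 for M2p[pIL-4] against M0[CTR], and 0.37 for pIL-4 + IFNG against M2p[pIL-4]. Within 200 kb the medians were -0.071 for M2p[pIL-4] against M0[CTR] and 0.087 for pIL-4 + IFNG against M2p[pIL-4].

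In the order M0[CTR], M2[IL-4], M2p[pIL-4], IFNG and pIL-4 + IFNG, loops near the genes numbered 148, 153, 179, 139 and 192 within 50 kb and 69, 55, 55, 46 and 64 after merging. Loops of the TSS bin and its neighbours numbered 49, 53, 69, 44 and 70, summed over the genes, with shared loops counted for each gene. Matching in the same bins gave 69 Transient, 37 Memory, 97 Primed, 35 transiently repressed (absent with IL-4, present again after the wash) and 66 stably repressed (absent from both) loops, and matching within 50 kb gave 1 Transient, 4 Primed, 2 transiently repressed and 2 stably repressed. The share of gained loops kept after the wash was 100% within 50 kb, of 2 loops. The causes were not tested.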
